A study of Rattus norvegicus with 6 samples.

Results

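The genes described here are the semaphorin, ephrin, Slit and netrin families of guidance cues and their receptors, measured by RNA-seq in aortas from rats that had chronic kidney disease. The rule goes by gene symbol and takes every one in the deposited table that starts with Sema, Plxn, Epha, Ephb, Efna, Efnb or Unc5, together with Slit1 to Slit3, Robo1 to Robo4, Ntn1, Ntn3, Ntn4, Nrp1 and Nrp2. The rule took 69 of 24005 listed genes. Of these, 2 share only the letters Unc5 with the netrin receptors: Unc50, a membrane trafficking gene, and Unc5cl, an adaptor of inflammatory signalling. The other 67 are guidance genes, of which 34 encode ligands and 33 encode receptors. A mean of at least 1 FPKM over the 6 libraries (FPKM, a level per gene length and per library total) was reached by 44 of the 67, and these 44 were tested.

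Guidance cues were first described as signals that steer growing axons, and they also pattern blood vessels. Semaphorins act through plexins, and the secreted class 3 semaphorins mostly through plexins joined to neuropilins, which also bind vascular endothelial growth factor. Ephrins are tethered to the cell surface and bind Eph receptor tyrosine kinases on neighbouring cells. Ephrin-B2 and EphB4 mark arterial and venous endothelium. Slits are large secreted ligands of Robo receptors, and netrins bind Dcc, neogenin and the Unc5 receptors, of which Unc5b is found on endothelium.

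All 6 libraries came from rats in which 5/6 of the kidney mass had been removed in 2 operations and which ate a diet with 1.2% phosphorus. The exosome group (n = 3) received ANCR/E7-EXO, engineered exosomes, by tail vein injection of 10 mg/kg once in 5 days. The saline group (n = 3) received an equal volume of saline over 13 weeks. The labels give no length of treatment for the exosome group. Both groups carried the disease and the diet. The labels do not say that each library is a different animal, so p-values measure only the spread between these samples, which may be technical.

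The FPKM steps implied totals of 28063355 to 44561082 reads or read pairs per library. Smooth muscle markers were abundant in every library, as in a vessel wall, but not even across libraries. Myh11, the smooth muscle myosin heavy chain, ranged from 1463 to 2109 FPKM and Acta2 from 4584 to 9086 FPKM. The 7 smooth muscle markers summed to 21527, 14734 and 13695 FPKM in saline and 21573, 15235 and 19486 FPKM in the exosome group. Heat shock genes, 12 in all, summed to 6059 FPKM in exosome 1 and 10811 FPKM in exosome 3, against 1368 FPKM in exosome 2 and 1646 to 2498 FPKM in saline. Adipocyte markers summed to 1084 FPKM in saline 2 and to 317 to 627 FPKM elsewhere, and mesothelial markers to 20.2 FPKM in saline 1 and at most 8.24 FPKM elsewhere. Of 6 neuronal markers, Elavl4 was at 0 in every library and the summed level was 0.830 to 3.91 FPKM, so the neuronal marker sum stayed near 0 beside the guidance genes. In whole tissue, fewer cells of a type and less RNA per cell cannot be told apart.

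RefSeq promoter windows of 300 bases (250 before and 50 after the annotated start, GRCr8) were matched for 54 of the 69 genes, and 3 are shown. Plxna2 had the smallest unadjusted p among the guidance genes tested, Sema6d the smallest among those lower in the exosome group, and Slit3 the highest level. The windows are chr13:108691280-108691579 (plus strand) for Plxna2, chr3:132337106-132337405 (plus strand) for Sema6d and chr10:20075679-20075978 (plus strand) for Slit3. Each runs 5′ to 3′, and capitals mark GC boxes, that is GGGCGG or CCGCCC, searched so that both strands are covered.
Plxna2: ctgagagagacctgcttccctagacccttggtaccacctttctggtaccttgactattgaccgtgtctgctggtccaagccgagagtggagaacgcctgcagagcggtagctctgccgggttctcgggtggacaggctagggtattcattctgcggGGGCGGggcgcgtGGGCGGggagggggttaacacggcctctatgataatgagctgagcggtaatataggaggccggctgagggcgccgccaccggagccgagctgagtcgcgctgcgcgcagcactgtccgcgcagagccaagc
Sema6d: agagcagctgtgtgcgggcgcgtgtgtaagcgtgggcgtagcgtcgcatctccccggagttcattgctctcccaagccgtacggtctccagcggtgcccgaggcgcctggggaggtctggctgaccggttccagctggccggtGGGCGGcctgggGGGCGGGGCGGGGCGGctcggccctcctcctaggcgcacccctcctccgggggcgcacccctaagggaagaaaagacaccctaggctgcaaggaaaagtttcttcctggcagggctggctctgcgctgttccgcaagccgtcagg
Slit3: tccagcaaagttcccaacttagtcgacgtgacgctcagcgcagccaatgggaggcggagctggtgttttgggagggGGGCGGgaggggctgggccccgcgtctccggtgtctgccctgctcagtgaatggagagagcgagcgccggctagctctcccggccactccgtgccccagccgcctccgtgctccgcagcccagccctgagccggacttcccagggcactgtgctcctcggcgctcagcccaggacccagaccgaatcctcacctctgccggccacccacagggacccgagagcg
The Plxna2 window held 2 GC boxes, the Sema6d window 4, of which neighbouring ones overlap by a base, and the Slit3 window 1. A GC box was found in 19 of 34 windows of tested guidance genes (55.9%) and in 10 of 19 windows of those under 1 FPKM (52.6%). The share was 62.4% over the 9749 windows of all genes at or above that level and 33.1% over all 33469 windows. TATAAA, searched on both strands, was in 0 of 53 guidance windows, against 6.75% of windows of all genes at that level and 14.2% of all windows. CCAAT, on both strands, was in 35.8% of guidance windows and 37.5% of all windows. The median ratio of observed to expected CpG was 0.668 in the guidance windows, below the 0.765 of all genes at that level and above the 0.392 of all windows. Robo1 had 2 windows, and both were counted. These matches describe the windows only.

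A few secreted ligands made up much of the guidance transcript pool. The summed level of the 67 genes was 704.8 ± 39.2 FPKM in saline and 684.2 ± 12.4 FPKM in the exosome group (SD, n = 3). Slit3 alone held 17.6% of it, followed by Sema3d with 9.52%, Sema3b with 6.28%, Sema3f with 6.18% and Ntn1, the founding netrin, with 5.41%. Together these 5 ligands made up 44.9%. By role, class 3 semaphorins held 27.6%, Slits 18.3%, membrane semaphorins 12.2% and plexins 11.5%. Netrins held 6.94%, ephrin-B ligands 6.14%, neuropilins 6.14% and EphB receptors 4.71%. EphA receptors held 2.29% and ephrin-A ligands 1.09%. Efnb2 alone held 5.24% of the summed level of the 67 genes, which is most of the 6.14% of the ephrin-B ligands. The Efnb2 level rests on an implied counted length of only 579 bases. It also rests on 511 to 811 reads per library, near the 416 to 1030 reads of Efnb1. The order of the ephrin-B share among the roles therefore depends on that length. The mean was above 10 FPKM for 17 genes and above 20 FPKM for 11.

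**Figure D1:**
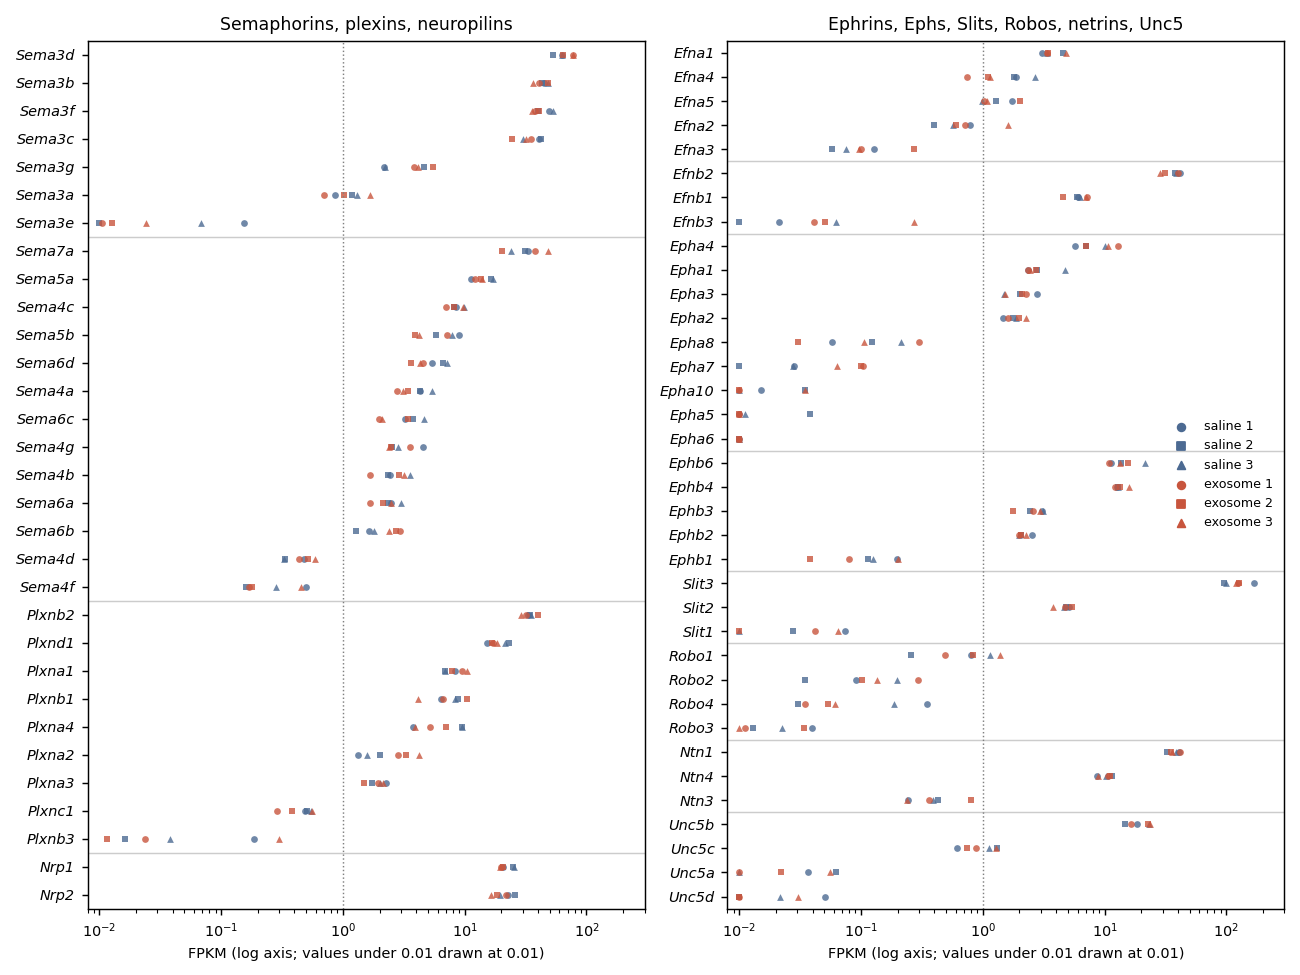
FPKM of each of the 67 guidance genes in each of the 6 libraries, grouped by role, on a log axis with values under 0.01 drawn at 0.01; colours are groups, marker shapes are library numbers, and the dotted line is 1 FPKM. Slit3, Sema3d, Sema3b and Sema3f sit near the right edge, while the 4 Robos lie to the left of or around the dotted line.

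The 23 guidance genes below a mean of 1 FPKM had 0 to 516 reads per library, and 19 of them had fewer than 100 reads in every library. Epha6 was at 0 in all 6 libraries. The tested genes nearest the limit were Sema3a with a mean of 1.13 FPKM, Efna5 with 1.35 FPKM and Efna4 with 1.56 FPKM. Those just below it were Unc5c with 0.995 FPKM, Robo1 with 0.818 FPKM and Efna2 with 0.784 FPKM. Among the receptors, 5 of 9 EphA receptors and all 4 Robos were under the limit, and only 1 of 4 Unc5 receptors was tested. Of the other receptors, 7 of 9 plexins, 4 of 5 EphB receptors and 2 of 2 neuropilins were tested.

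Ligand and receptor levels were uneven in the Slit and netrin families. Slit3 was at 167.4, 95.0 and 98.7 FPKM in saline and 124.4, 127.1 and 119.3 FPKM in the exosome group. The 4 Robo receptors summed to 1.276, 0.335 and 1.56 FPKM in saline and 0.827, 1.03 and 1.58 FPKM in the exosome group. Slit3 was thus far above the 4 Robos in every library, and no library of either group stood apart in that order. Only the Robos were set beside Slit3 here, not other genes that may bind Slits. Robo1, the broadly expressed family member, ranged from 0.257 to 1.38 FPKM (60 to 482 reads). Robo4, the endothelial Robo, was at 0.349, 0.0304 and 0.186 FPKM in saline and 0.0350, 0.0535 and 0.0607 FPKM in the exosome group, from 3 to 39 reads. Slit2 was near 5 FPKM in both groups, and Slit1 had at most 14 reads in a library.

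Among netrin receptors the picture was different. Ntn1 was at 40.7, 32.9 and 38.7 FPKM in saline and 41.6, 35.3 and 36.0 FPKM in the exosome group. Dcc, the classical axonal netrin receptor, averaged 0.0281 FPKM in saline and 0.0249 FPKM in the exosome group. Neo1, which encodes neogenin, a receptor of the same family, was at 38.9 ± 5.82 FPKM and 31.3 ± 4.56 FPKM (SD, n = 3). Mcam, a cell adhesion molecule reported to bind netrin-1, was at 246 ± 96.2 FPKM and 250 ± 14.7 FPKM. Unc5b was at 18.9 ± 4.33 FPKM and 20.9 ± 3.81 FPKM. The netrin receptors with clear signal in these libraries were therefore Neo1, Mcam and Unc5b. Both Neo1 (adjusted p = 0.351) and Unc5b (adjusted p = 0.711) missed the threshold between groups in limma.

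**Figure D2:**
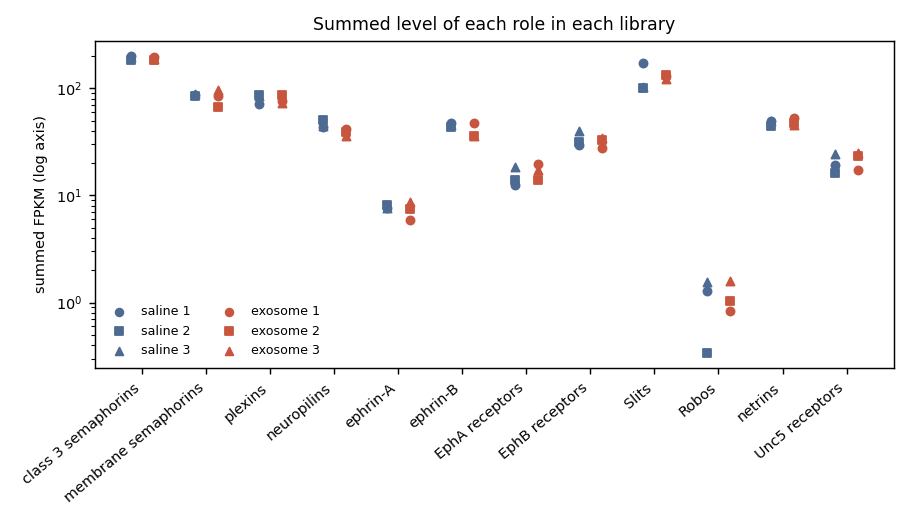
Summed FPKM of the genes of each role in each library on a log axis; colours are groups and marker shapes are library numbers. The Slit sums of 99.9 to 172.6 FPKM lie far above the Robo sums of 0.335 to 1.58 FPKM in every library.

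The comparison of the exosome with the saline group asks whether the treatment went with a change in guidance transcripts of the diseased aorta. No guidance gene passed the threshold: 0 of 44 had an adjusted p under 0.05 in limma with Benjamini-Hochberg adjustment over 11742 genes, of which 0.00852% were called (1 gene, Zbtb16). The count was also 0 with any single library left out and in a limma-voom fit on recovered reads. Library weights, whose estimation stopped before convergence, called 11 of the 44 guidance genes and 3268 of all 11742 genes. Weights estimated gene by gene called 1 of the 44 (Efna4) and 618 of all 11742 genes. At an unadjusted p under 0.05, 2 guidance genes were higher in the exosome group, where 6.75% of all genes tested were, and 4 were lower, where 9.24% of all genes were. These 6 of 44 (13.6%) lay below the 16.0% of all genes, but the order turned under other settings. With a replicate block the shares were 20.5% of the guidance genes and 14.6% of all genes. Without saline 1 they were 26.7% and 18.002%, without saline 2 they were 18.2% and 10.1%, and without saline 3 they were 11.4% and 8.48%. Without exosome 1 they were 13.3% and 9.36%, without exosome 2 they were 24.4% and 27.4%, and without exosome 3 they were 11.4% and 8.05%. Whether the guidance genes held more or fewer such genes than the rest thus changed with single libraries.

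By direction, 16 of the 44 were higher and 28 lower in the exosome group, with a median log2 difference of -0.08. Over all genes tested the median was -0.07, and 39.3% were higher, against 36.4% of the guidance genes. After rescaling to the median of ratios, 43.2% of the guidance genes and 49.0% of all genes were higher. Groups did not overlap, with exosome above saline, for 3 guidance genes (Plxna2, Sema6b and Sema3d), where 9.4% of all genes were of this kind. Groups did not overlap in the other direction for 3 (Sema6d, Efna4 and Sema4a), where 11.7% of all genes were. The 6 of 44 (13.6%) were fewer in share than the 21.1% over all genes. With all 6 libraries, neither count stood above the background.

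**Figure D3:**
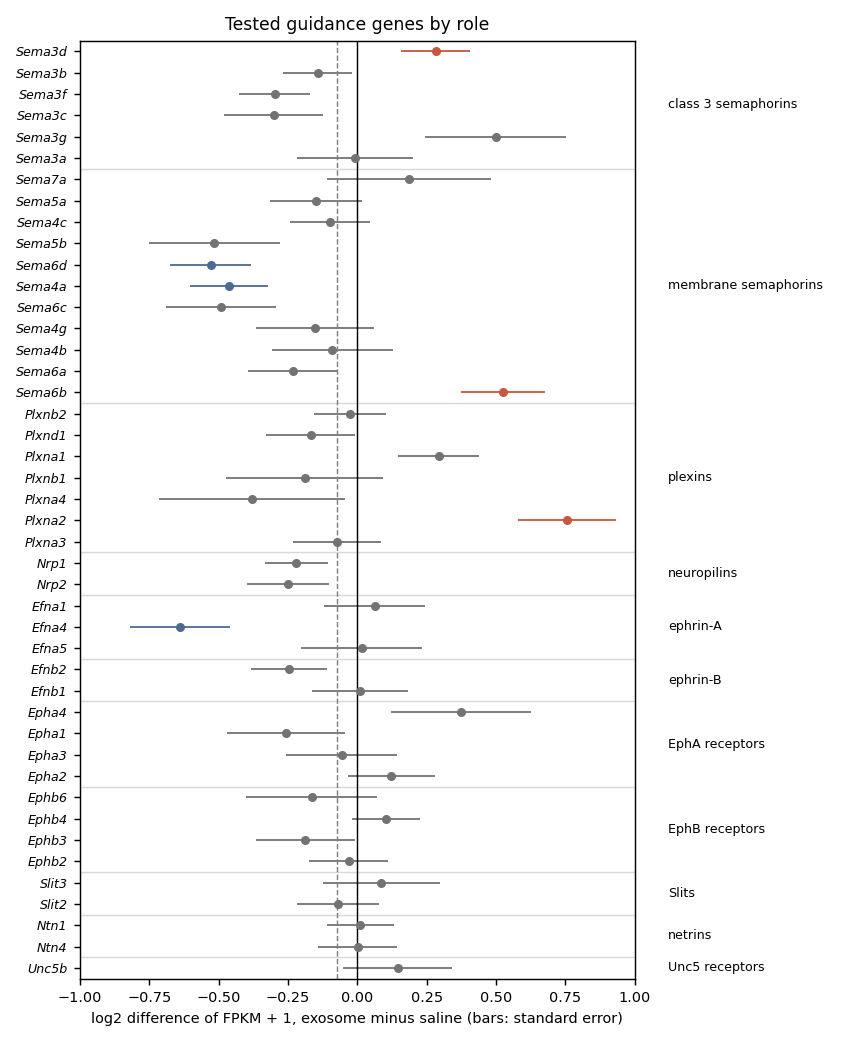
Log2 difference of FPKM + 1 (exosome minus saline) with limma's standard error for the 44 tested guidance genes, ordered by role; the dashed line is the median of all genes tested, and red and blue mark genes whose groups did not overlap. The 3 red genes are Plxna2, Sema6b and Sema3d and the 3 blue genes are Sema6d, Efna4 and Sema4a, and none of the 6 passed the adjusted threshold.

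Of the class 3 semaphorins, the secreted ligands, 2 of 6 tested were higher and 4 lower in the exosome group, with a median log2 difference of -0.08. Sema3d was at 63.2, 52.7 and 62.8 FPKM in saline and 76.9, 63.9 and 77.1 FPKM in the exosome group. The lowest exosome library was only just above the highest saline library. The log2 difference was 0.28 (SE 0.12, adjusted p = 0.319 in limma), and 0.10 with exosome 1 and 3 both left out, which leaves 1 exosome library here and below. Sema3f, a ligand of neuropilin-2, was at 49.5, 40.1 and 53.0 FPKM in saline and 38.1, 40.8 and 35.9 FPKM in the exosome group, so that saline 2 lay within the exosome range. Its log2 difference was -0.30 (adjusted p = 0.312 in limma). Sema3c was at 41.0, 42.0 and 30.0 FPKM in saline and 34.8, 24.4 and 31.7 FPKM in the exosome group, and the groups overlapped.

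Sema3b held nearly the same level in both groups, 45.7 ± 2.53 FPKM and 41.5 ± 5.95 FPKM (SD, n = 3). Sema3g, a class 3 semaphorin of endothelium, was low: 2.16, 4.67 and 2.20 FPKM in saline and 3.85, 5.47 and 4.14 FPKM in the exosome group. Saline 2 was inside the exosome range, and the log2 difference of 0.50 missed the threshold (adjusted p = 0.361 in limma). Sema3a, the collapsin that repels axons, was near 1 FPKM in both groups with a log2 difference of -0.01. Sema3d and Sema3a are neighbours in the RefSeq gene order with no protein-coding gene between them, yet differed widely in level, with means of 66.1 and 1.13 FPKM.

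The membrane semaphorins included 4 of the 6 guidance genes with an unadjusted p under 0.05 in limma (Sema6d, Sema6b, Sema4a and Sema6c). These 4 were 36.4% of the 11 tested, against 16.0% of all genes, and none passed the adjusted threshold. Of the 11, 2 were higher (18.2%, against 39.3% of all genes) and 9 lower, with a median log2 difference of -0.15. Sema6d, a transmembrane ligand of plexin-A1 known from heart development, was at 5.43, 6.62 and 7.20 FPKM in saline and 4.53, 3.60 and 4.26 FPKM in the exosome group. Every exosome library was below every saline library, with a log2 difference of -0.53 (SE 0.15, adjusted p = 0.256 in limma). With exosome 1 and 3 both left out it was -0.68.

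Sema4a, a semaphorin of immune cells and vessels, was at 4.34, 4.31 and 5.41 FPKM in saline and 2.80, 3.42 and 3.13 FPKM in the exosome group. The groups did not overlap, and the log2 difference was -0.46 (SE 0.14, adjusted p = 0.261 in limma). Sema6c was at 3.27, 3.73 and 4.63 FPKM in saline and 1.98, 3.43 and 2.09 FPKM in the exosome group, where exosome 2 lay inside the saline range. Its log2 difference of -0.49 (adjusted p = 0.306 in limma) was -0.13 with exosome 1 and 3 both left out. Sema5b had a log2 difference of -0.52 (adjusted p = 0.328 in limma) from 7.54 ± 1.63 FPKM in saline and 5.06 ± 1.79 FPKM in the exosome group (SD, n = 3). Sema6b, a close relative of Sema6d and Sema6c, went the other way, at 1.63, 1.279 and 1.79 FPKM in saline and 2.92, 2.74 and 2.39 FPKM in the exosome group. Its groups did not overlap, with a log2 difference of 0.52 (SE 0.15, adjusted p = 0.261 in limma).

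Sema7a, a lipid-anchored semaphorin that binds integrins and plexin-C1, had the widest spread within the exosome group of the semaphorins above 10 FPKM. It was at 33.2, 31.2 and 24.0 FPKM in saline and 38.0, 20.2 and 48.0 FPKM in the exosome group. Exosome 1 and 3, where heat shock genes were high, were above all saline libraries, and exosome 2 was below them. Without exosome 1 and 3 the log2 difference went from 0.18 to -0.51. The part of the heat shock state in this spread was not tested. Its receptor gene Plxnc1 was under 1 FPKM in every library.

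Plexins, the semaphorin receptors, were led in level by Plxnb2, a receptor of class 4 semaphorins, with 34.0 ± 1.10 FPKM in saline and 33.7 ± 5.46 FPKM in the exosome group (SD, n = 3). The log2 difference of Plxnb2 was -0.03 and turned to 0.05 after rescaling to the median of ratios. Of 7 plexins tested, 2 were higher and 5 lower. Plxna2, a receptor for class 3 and class 6 semaphorins, was at 1.33, 2.01 and 1.57 FPKM in saline and 2.85, 3.30 and 4.23 FPKM in the exosome group. The exosome libraries were all above the saline libraries, with 945 to 1924 reads against 455 to 609. The mean level was 1.64 ± 0.347 FPKM in saline and 3.46 ± 0.704 FPKM in the exosome group (SD, n = 3). The log2 difference of 0.76 (SE 0.18, unadjusted p = 0.00319, adjusted p = 0.255 in limma) did not pass the threshold. It was 0.63 to 0.86 with single libraries left out and 0.71 with exosome 1 and 3 both left out.

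Plxna1, the paralog of Plxna2 that also pairs with neuropilins, was at 8.38, 6.85 and 6.84 FPKM in saline and 9.51, 7.81 and 10.5 FPKM in the exosome group. Exosome 2 fell inside the saline range, and the log2 difference was 0.29 (adjusted p = 0.353 in limma). Plxna3, Plxna4, Plxnb1 and Plxnd1 were lower on average, with log2 differences of -0.07, -0.38, -0.19 and -0.17, none of them past the threshold. Plxna4 varied within the saline group itself, at 3.78, 9.57 and 9.57 FPKM, with exosome libraries at 5.18, 6.98 and 3.91 FPKM. Its groups overlapped.

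Both neuropilins were slightly lower in the exosome group. Nrp1, a shared receptor of class 3 semaphorins and vascular endothelial growth factor, was at 20.7, 24.9 and 25.2 FPKM in saline and 19.9, 20.8 and 19.5 FPKM in the exosome group. Exosome 2 lay just above saline 1, so the groups overlapped. The log2 difference was -0.22 (SE 0.11, adjusted p = 0.363 in limma). Nrp2, the neuropilin of veins and lymphatics, had a log2 difference of -0.25 (adjusted p = 0.412 in limma) from 22.7 ± 3.10 FPKM and 18.9 ± 2.84 FPKM (SD, n = 3). Neither passed the threshold. The 4 lymphatic markers summed to 49.5, 29.7 and 34.3 FPKM in saline and 15.7, 54.3 and 71.3 FPKM in the exosome group. The part of lymphatic content in the Nrp2 level was not tested.

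**Figure D4:**
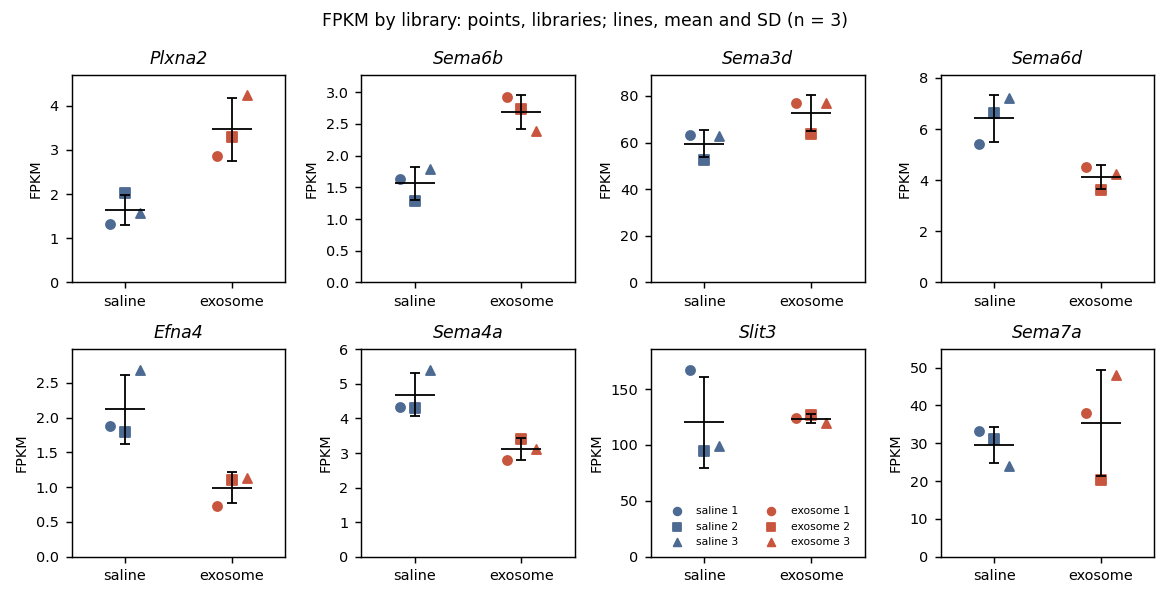
FPKM of 8 guidance genes in each library, with horizontal lines for the group mean and bars for the SD (n = 3); each axis starts at 0 and shapes mark the library number. Plxna2, Sema6b and Sema3d lie higher and Sema6d, Efna4 and Sema4a lower in all 3 exosome libraries, while Slit3 is set apart by saline 1 at 167.4 FPKM and Sema7a by exosome 1 and 3.

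Ephrin-A ligands, which are lipid-anchored, were low, and 2 of 3 tested were higher. Efna4 was the exception, at 1.87, 1.79 and 2.69 FPKM in saline and 0.737, 1.11 and 1.14 FPKM in the exosome group. The groups did not overlap, but the values rest on 65 to 112 reads in saline and 31 to 62 reads in the exosome group. The log2 difference of Efna4 was -0.64 (SE 0.18, adjusted p = 0.256 in limma), and library weights estimated gene by gene gave an adjusted p of 0.0488. It was 0.0142 with the other library weights and 0.108 to 0.589 over the alternatives without weights that kept at least 2 libraries per group. Efna1, Efna3 and Efna4 lie side by side in the RefSeq gene order. Efna1, the ephrin best known from endothelium, did not share the pattern of its neighbour, with a log2 difference of 0.06, and Efna3 was under 0.3 FPKM in every library.

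The ephrin-B side was dominated by Efnb2. It was at 41.7, 37.8 and 38.7 FPKM in saline and 40.1, 31.4 and 28.7 FPKM in the exosome group. Exosome 1 was within the saline range while exosome 2 and 3 were below it, with a log2 difference of -0.25 (SE 0.14, adjusted p = 0.392 in limma). Efnb1 was near 6 FPKM in both groups, and Efnb3 was under the limit for testing.

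Of the Eph receptors, 8 of 14 were tested, 3 of them higher and 5 lower, and none passed the threshold or had groups apart. Ephb4, the receptor of ephrin-B2, was at 12.6, 12.9 and 12.9 FPKM in saline and 12.2, 13.5 and 16.0 FPKM in the exosome group. The saline libraries agreed closely and the exosome libraries spread on both sides of them, with a log2 difference of 0.10 (adjusted p = 0.674 in limma). Ephb6, which lacks kinase activity, averaged 15.5 ± 5.30 FPKM in saline and 13.3 ± 2.36 FPKM in the exosome group (SD, n = 3). Epha4, the Eph receptor that binds both ephrin classes, was at 5.74, 7.02 and 10.1 FPKM in saline and 12.9, 7.03 and 10.7 FPKM in the exosome group, with overlapping groups and a log2 difference of 0.37 (adjusted p = 0.464 in limma).

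Slits, netrins and Unc5b differed little between groups. The log2 difference of Slit3 was 0.09 (SE 0.21, adjusted p = 0.848 in limma). Saline 1 held the highest Slit3 level and the highest mesothelial marker sum, and the part of that marker sum in the level was not tested. The sign of the Slit3 difference depended on single libraries: it was 0.35 without saline 1, -0.06 without saline 2 and -0.03 without saline 3. Ntn1 and Ntn4, a basement membrane netrin, had log2 differences of 0.01 and below 0.01 in size, with standard errors of 0.12 and 0.14. Unc5b was at 18.5, 14.8 and 23.4 FPKM in saline and 16.5, 22.7 and 23.4 FPKM in the exosome group, and the groups covered nearly the same range.

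A chosen list of 8 guidance genes with known roles in endothelium held Ephb4, Efnb2, Plxnd1, Robo4, Nrp1, Unc5b, Sema3g and Efna1. The list is not complete: Nrp2 and Sema4a, for example, are not on it. The sum and counts given for these 8 genes depend on that choice. The summed level of the 8 genes was 114.3, 122.7 and 127.6 FPKM in saline and 112.9, 114.4 and 114.8 FPKM in the exosome group. The largest part of this sum was Efnb2, whose level rests on an implied length of 579 bases. Of the 7 tested, 4 were higher and 3 lower with a median log2 difference of 0.06, and none had groups apart. The 12 endothelial markers summed to 151.9, 184.4 and 137.6 FPKM in saline and 190.2, 274.3 and 195.8 FPKM in the exosome group. Of these markers 9 of 12 were higher, 5 with groups apart (Pecam1, Vwf, Nos3, Cldn5 and Esam; 41.7%, against 9.4% of all genes apart upward), and 0 of 12 passed the adjusted threshold. Kdr, Egfl7 and Erg were the 3 markers that were lower. The marker sum weights the abundant Pecam1 and Vwf most. With each marker weighted equally (the mean deviation of its log2 level from its own mean), the groups overlapped: saline was at -0.25, 0.06 and -0.36 and the exosome group at 0.01, 0.40 and 0.13. Weighted in the same way, the 8 guidance genes were at -0.09, 0.07 and 0.02 in saline. They were at -0.07, 0.02 and 0.05 in the exosome group, so these groups overlapped too. The difference between the guidance list and the marker list was not tested.

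The sum of the 7 macrophage markers was 77.9 to 88.8 FPKM in saline and 109.1 to 133.0 FPKM in the exosome group, with 7 of 7 higher and 5 with groups apart (71.4%, against 9.4% of all genes apart upward). Cd163, a scavenger receptor of resident macrophages, was at 6.45 ± 0.533 FPKM in saline and 15.0 ± 2.13 FPKM in the exosome group (SD, n = 3; log2 difference 1.09, adjusted p = 0.143 in limma). None of the 7 passed the adjusted threshold. Immediate early genes, 15 in all, summed to 1302 to 2699 FPKM in saline and 737 to 1156 FPKM in the exosome group, with 12 of 14 tested lower and 5 with groups apart downward (35.7%, against 11.7% of all genes). The part of macrophages and of the immediate early state in the differences of Plxna2, Sema4a and the other leading genes was not tested.

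**Figure D5:**
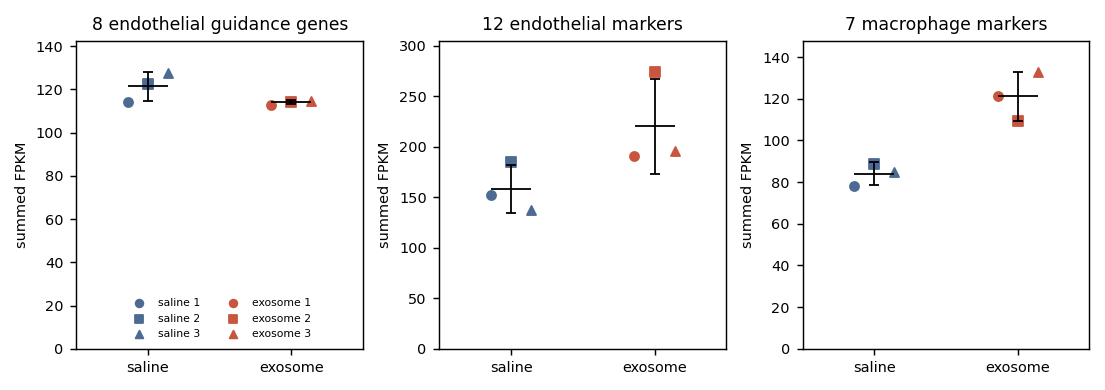
Summed FPKM per library of 8 endothelial guidance genes, 12 endothelial markers and 7 macrophage markers, with lines for the group mean and bars for the SD (n = 3); each axis starts at 0. The endothelial guidance sum spans 112.9 to 127.6 FPKM over all libraries, while both marker sums are higher in all 3 exosome libraries.

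Downstream and accessory genes of the 4 pathways were taken from a list of 91, of which 90 were in the table and 74 were tested. Of these 43 were higher (58.1%, against 39.3% of all genes) and 31 lower with a median log2 difference of 0.07, and 0 passed the adjusted threshold. At an unadjusted p under 0.05, 9 were higher and 5 lower, 18.9% of the partners against 16.0% of all genes. Groups did not overlap for 8 higher and 5 lower, 17.6% of the partners against 21.1% of all genes. By pathway, 12 of 20 semaphorin partners, 11 of 16 ephrin partners, 14 of 24 Slit and Robo partners and 6 of 14 netrin partners were higher.

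Dpysl2, which encodes CRMP2, the cytoplasmic mediator of Sema3a signalling, was at 20.9, 20.5 and 34.2 FPKM in saline and 49.7, 40.1 and 45.4 FPKM in the exosome group. All exosome libraries were above saline, with a log2 difference of 0.85 (SE 0.20, adjusted p = 0.255 in limma). Sema3a itself was near 1 FPKM. Mical3, of the MICAL family of enzymes that oxidise actin downstream of plexins, had a log2 difference of -0.37 (adjusted p = 0.261 in limma), with groups apart. The other MICAL genes listed had the opposite sign, with log2 differences of 0.54 for Mical2 (adjusted p = 0.291 in limma) and 0.21 for Mical1 (adjusted p = 0.523 in limma).

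Chn2, which encodes beta-chimaerin, a relative of the Rac inhibitor that acts below EphA4, was at 72.2, 123.8 and 91.9 FPKM in saline and 51.7, 61.7 and 31.5 FPKM in the exosome group. All exosome libraries were below saline, with a log2 difference of -0.99 (SE 0.28, adjusted p = 0.256 in limma). Srgap3, a Rac inhibitor of the Slit and Robo pathway, was at 8.04, 7.90 and 12.5 FPKM in saline and 5.73, 5.24 and 2.39 FPKM in the exosome group, with a log2 difference of -0.98 (SE 0.29, adjusted p = 0.261 in limma). Neither passed the threshold, and the levels of their paralogs were not lower to the same extent. Chn1, which encodes alpha-chimaerin, had a log2 difference of 0.51 (adjusted p = 0.327 in limma) and Srgap2 one of -0.01. Srgap1 was below 1 FPKM and not tested, at 0.406 FPKM on average in saline and 0.708 FPKM in the exosome group, with groups apart. Pdzrn3, an ubiquitin ligase that binds ephrin-B, and Ptpn11, the phosphatase SHP2, had log2 differences of 0.34 (adjusted p = 0.259 in limma) and 0.30 (adjusted p = 0.270 in limma), both with groups apart.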

How the data were processed

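The authors deposited 1 table of FPKM values for 24005 gene symbols in 6 aorta libraries. Libraries were made with the SMARTER mRNA-seq kit, per the labels' protocols. The submitters' processing notes name DESeq2 1.28.1 without saying for what. Aligner, genome build, annotation and strand setting: not given in the sources used here. FPKM steps gave whole reads for 100.0% of the 18430 genes above 0 (within 0.00002 reads, or 0.001 above 1000 reads), and reads on genes were 98.61% to 98.92% of implied totals. Tested guidance genes had 31 to 29238 reads per library. No libraries were duplicates (chi-square of 48.9 to 134.8 per gene).

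Groups were compared with limma 3.58.1 (R 4.3.3) on log2(FPKM + 1), a scale that understates changes of low genes, two-sided and with a trend on intensity, for the 11742 genes averaging 1 FPKM or more, and Benjamini-Hochberg adjustment with a threshold of 0.05. Standard errors are limma's and SDs are of FPKM. The fit was tested on simulated independent counts with a fixed spread and no differences of state or tissue between libraries. That test cannot show how the fit performs on these libraries, where such differences were present. Members and lists were chosen with earlier results of these data known. Genes named were the 12 most abundant, the 14 with the smallest p, 8 endothelial guidance genes and the 6 partners with the smallest p; others were named after their values were seen. Alternatives were a pseudocount of 0.1, other filters, rescaling, no trend, library weights, a replicate block, limma-voom, and libraries left out. Gene-by-gene weights were chosen after seeing the data. Coordinates, windows and gene order are RefSeq's (GRCr8), matched by symbol. Read recovery and plots used Python 3.11.15.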

Additional observations from a re-analysis of the deposited data

How the results depend on the processing

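With a replicate block 1 gene and 0 guidance genes passed the threshold and the guidance median stayed at -0.08, while 9 guidance genes (20.5%, against 14.6% of all genes) had an unadjusted p under 0.05, against 6 without the block (13.6%, against 16.0%). The labels do not state that the numbers pair the libraries. Same-numbered deviations correlated at 0.07, 0.10 and -0.17, and not every library correlated best with its own number. With 3 libraries per group these correlations cannot decide whether the numbers pair them. Genes past the threshold, 1 in all, were 3268 with library weights, 618 with weights estimated gene by gene, 0 with exosome 1 and 3 both left out (a fit with 1 exosome library, assumed to vary like saline), and 0 to 9 with single libraries left out (9 without saline 1, 4 without exosome 2, 2 without exosome 3, and 0 without saline 3 or exosome 1). Guidance genes past the threshold, 0 of 44 in the main fit, were 11 of 44 with library weights, where 3268 of 11742 genes passed. With weights gene by gene they were 1 of 44, where 618 of 11742 genes passed. The first weights, of 9.20 for exosome 1 and 0.305 for exosome 2, came from an estimation that stopped before convergence. The 6 guidance genes with groups apart were 2 of 25 at a mean of at least 5 FPKM (8%, against 21.8% of all genes). The count was 23 (52.3%, against 51.5% of all genes) with exosome 1 and 3 both left out. It was 7 to 15 with single libraries left out (14 without saline 1, 11 without saline 2, 12 without exosome 1 and 15 without exosome 2). Fewer libraries make such separation more frequent (15.9% to 33.3% of guidance genes, against 25.8% to 48.4% of all genes). The guidance median ranged from -0.14 to -0.02.

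Of 418 values of 25 named genes under alternatives, 385 kept their direction and side of the threshold, 10 passed it under weights and 23 changed sign. With exosome 1 and 3 both left out, log2 differences changed sign for Sema3b (0.068), Ntn1 (-0.077), Plxnb2 (0.219), Sema7a (-0.510) and Efna1 (-0.058). With library weights they did so for Efnb2 (0.0037), Ephb4 (-0.041), Unc5b (-0.130) and Efna1 (-0.096), and with weights gene by gene for Unc5b (-0.0088) and Efna1 (-0.037). Rescaling gave Plxnb2 0.010 (equal sums) and 0.048 (median of ratios). With single libraries left out, ranges that crossed 0 were -0.058 to 0.348 for Slit3, -0.078 to 0.072 for Ntn1, -0.149 to 0.067 for Plxnb2, -0.071 to 0.532 for Sema7a, -0.0097 to 0.305 for Unc5b and -0.072 to 0.197 for Efna1. The cause of these changes was not tested. Depth limits the 23 genes under 1 FPKM, of which 19 had fewer than 100 reads in every library.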
